A study of Mus musculus with 24 samples.

Results

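The genes described here lie in a pair of autosomal segments of the mouse genome, on chromosomes 7 and 18, in which the lymphoid clone Abl.1 expressed the 2 parental alleles unevenly. A gene was a member if it had at least 50 allelic counts pooled over the 2 Abl.1 libraries and started within chr7:43672016-75874131 or chr18:3266048-15833327 (GRCm38), with the known imprinted genes Impact, Snrpn, Ndn, Magel2, Mkrn3 and Ube3a left out. This gave 99 members on chromosome 7 and 34 on chromosome 18, or 133 of the 37315 genes in the deposited tables. They made up 12.6% and 13.2% of the genes that met the same count minimum on the respective chromosome. A further 458 and 62 genes that start in the segments fell short of the minimum, of which most (412 and 50 genes of each segment, imprinted ones included) had no allelic count in Abl.1. The borders of the segments were chosen on the allelic imbalance measured in Abl.1, so counts of members past a threshold between Abl.1 and Abl.2 describe the chosen segments and are no evidence of a difference, and tests are read only for comparisons without Abl.1.

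Abl.1 and Abl.2 are Abelson-virus immortalised B cell lines in growth medium, clonal, from female 129S1/SvImJ x CAST/EiJ F1 mice. Each line is therefore 1 clone, and a difference between them is a difference between 2 clones, not between 2 conditions. Each clone had 2 libraries made with the SMARTseq v4 kit from 10 ng of RNA, and the 2 Abl.2 libraries were also sequenced again on another day. The kidney samples came from the left kidney RNA of 1 untreated adult female of the same F1 background and formed Experiment 1 (NEBNext kit, 100 ng), Experiment 2 (SMARTseq, 10 ng) and Experiment 3 (SMARTseq, 100 pg), with 6 libraries each. All libraries of a group were prepared from the same RNA, so the tests measure the spread between library preparations only.

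In a hybrid of distant inbred strains, reads that cover a strain-specific variant can be assigned to the copy inherited from either parent. Allelic imbalance (AI) is the maternal-column share of those reads, so that 0.5 stands for even expression and 0 for paternal-column counts alone. As general background, uneven expression is known from genomic imprinting, from sequence differences between the strains, from mitotically stable monoallelic expression in clonal cells and from unequal copy number of the chromosomes. A clone can share a mitotically stable state across its cells, whereas a tissue averages such states over many cells. Whether all cells of a clone were alike was not tested. The columns of the deposited tables are called maternal and paternal here, as they are there. Whether each column holds the same parent's copy in the clones and in kidney was not tested.

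The clone libraries held 19213150 to 22410835 allelic counts and the kidney libraries 6138693 to 6702351. The quality correction constant (QCC), which expresses how much more AI differs between replicates than binomial sampling predicts, was 2.53 in Abl.1, 2.16 in Abl.2 and 1.47 in kidney Experiment 2. With the Abl.1 constant, a gene at an AI of 0.5 with 50 counts has a 95% interval from 0.213 to 0.787, and a gene with 1000 counts has one from 0.423 to 0.577. All 12 pre-B lymphoid markers examined had 50 or more counts in both clones, where their sum was between 8747 and 9953 CPM (counts scaled to a common total of allelic counts per library), against at most 66.0 in the kidney libraries. T cell markers summed to at most 16.6 and erythroid ones to at most 2.65 CPM in the clones. Myeloid markers summed to 185.7 to 215.8 CPM in Abl.1 and 299.0 to 308.8 in Abl.2. Of the 6 myeloid markers, 5 had 50 or more counts in Abl.1 and 1 in Abl.2, where Mpo, Fcgr1 and Cd14 were at 0. The part of all these markers in the differences between the clones was not tested. All 12 kidney markers had 50 or more counts in kidney (20648 to 32319 CPM), with 10 of them at 0 in Abl.1, where the sum was at most 32.2 CPM.

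Neighbouring members could differ completely. Ftl1, the light chain of the iron store ferritin, and Bax, which permeabilises mitochondria in cell death, are transcribed in the same direction and lie 1813 bases apart, yet in Abl.1 Ftl1 had almost no maternal-column count and Bax was on the maternal side of even. Bax was on that side in Abl.2 too, at 0.549 and 0.546 in the libraries against 0.564 and 0.575 in Abl.1. The RefSeq promoter windows of both genes are shown because these neighbours differed in AI in Abl.1. Each window has 300 bases, from 250 before to 50 after the gene start, on the minus strand of GRCm38.p6. Capitals mark the CG dinucleotides, the sites of DNA methylation in mammals, of which Ftl1 had 20 at chr7:45459837-45460136 and Bax had 19 at chr7:45466849-45467148.
Ftl1: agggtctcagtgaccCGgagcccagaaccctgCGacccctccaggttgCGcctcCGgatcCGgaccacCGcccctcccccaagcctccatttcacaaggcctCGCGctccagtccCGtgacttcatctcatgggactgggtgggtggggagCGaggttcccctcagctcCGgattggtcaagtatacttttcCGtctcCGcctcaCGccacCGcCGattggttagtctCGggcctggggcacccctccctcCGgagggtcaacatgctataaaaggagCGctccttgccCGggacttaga
Bax: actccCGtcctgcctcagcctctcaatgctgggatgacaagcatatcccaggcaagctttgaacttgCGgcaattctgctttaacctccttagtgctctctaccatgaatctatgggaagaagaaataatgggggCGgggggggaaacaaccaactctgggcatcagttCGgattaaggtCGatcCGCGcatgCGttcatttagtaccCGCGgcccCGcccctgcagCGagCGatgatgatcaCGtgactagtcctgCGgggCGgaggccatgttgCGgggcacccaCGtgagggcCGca
Of the 99 chromosome 7 members, 83 matched a promoter window by symbol, and 85.5% of these held 10 or more CG dinucleotides (CG reads the same on both strands). The share was 43.5% of all 32851 windows and 84.1% of the 7771 windows of autosomal genes that met the count minimum in Abl.1. By AI in Abl.1 it was 20 of 28 windows under 0.05, 22 of 22 from 0.05 to under 0.2 and 15 of 17 from 0.2 to under 0.4. It was 13 of 13 from 0.4 to 0.6 and 1 of 3 over 0.6, as a description with no test.

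On chromosome 7 the members leaned towards the paternal column in Abl.1 and were even elsewhere. The median AI of the 99 members was 0.163 in Abl.1 (quartiles 0.00623 and 0.334). It was 0.5 in Abl.2 over the 90 members with 50 or more counts there, 0.497 in the repeat sequencing of Abl.2 and 0.504 in kidney Experiment 2 over 88 members. By library, the median was 0.152 and 0.162 in the Abl.1 libraries and 0.496 and 0.501 in those of Abl.2, and over the 18 kidney libraries it ranged from 0.489 to 0.524. The Abl.1 libraries lay below all others. For the 683 other genes of chromosome 7 with the same minimum, the median in Abl.1 was 0.495.

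On chromosome 18 the shift was smaller. The median AI of the 34 members was 0.313 in Abl.1 (quartiles 0.192 and 0.490), against 0.5 in Abl.2 over 30 members and 0.509 in Experiment 2 over 31 members. The Abl.1 libraries gave 0.315 and 0.323, the Abl.2 libraries 0.5 and 0.496, and the kidney libraries ranged from 0.443 to 0.539. Again both Abl.1 libraries were below all others, and the 222 other genes of the chromosome had a median of 0.496 in Abl.1.

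**Figure D1:**
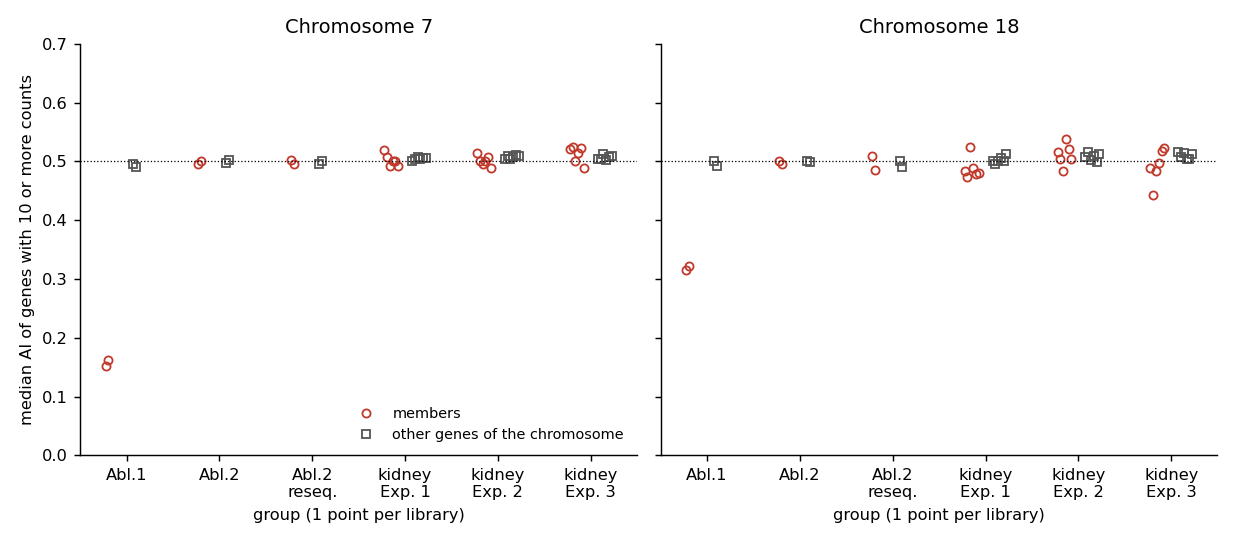
Median AI in each library (vertical axis, maternal-column share from 0 to 1, shown to 0.7) of the members (circles) and of the other genes of the same chromosome (squares) for genes with 10 or more counts in that library, by group (horizontal axis). The 2 Abl.1 libraries sit at 0.152 and 0.162 for the chromosome 7 members and at 0.315 and 0.323 for those of chromosome 18, while every other point lies between 0.443 and 0.539.

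The members did not share a common AI in Abl.1. On chromosome 7, 33 of the 99 were under 0.05, 27 were from 0.05 to under 0.2, 20 from 0.2 to under 0.4, 15 from 0.4 to 0.6 and 4 over 0.6. In Abl.2, 77 of 90 were from 0.4 to 0.6 and none was under 0.2, and in Experiment 2, 73 of 88 were from 0.4 to 0.6 and 1 was under 0.2. The 29 members under 0.05 in Abl.1 that had 50 or more counts in Abl.2 had a median AI of 0.519 there, with a range from 0.218 to 0.876. On chromosome 18, 2 of 34 members were under 0.05 in Abl.1, 8 were from 0.05 to under 0.2, 12 from 0.2 to under 0.4, 8 from 0.4 to 0.6 and 4 over 0.6. In Abl.2, 23 of 30 lay from 0.4 to 0.6, and in Experiment 2, 29 of 31 did.

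Adjacent members differed more from each other in Abl.1 than in Abl.2 or Experiment 2. Adjacent means next in order among the members, and genes under the count minimum can lie between them. The AI of neighbours differed by 0.3 or more in 14 of 98 pairs on chromosome 7 in Abl.1, in 5 of 89 pairs in Abl.2 and in 6 of 87 pairs in Experiment 2, for members with 50 or more counts. The median difference between neighbours was 0.118, 0.0640 and 0.0740. On chromosome 18 it was 0.177 in Abl.1, 0.0660 in Abl.2 and 0.0600 in Experiment 2. There, 9 of 33, 4 of 29 and 1 of 30 pairs differed by 0.3 or more, in the same order. The 2 Abl.1 libraries differed from each other by a median of 0.0154 for the chromosome 7 members and 0.0345 for those of chromosome 18. Across the 82 chromosome 7 members with 50 or more counts in all of Abl.1, Abl.2 and Experiment 2, Spearman's rho of AI was 0.0783 between Abl.1 and Abl.2, 0.105 between Abl.1 and Experiment 2 and 0.372 between Abl.2 and Experiment 2. The same values over 5093 genes of autosomes without such segments were 0.497, 0.303 and 0.326. These are correlations across genes, which share their libraries and are not replicates, and they are given as a description.

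**Figure D2:**
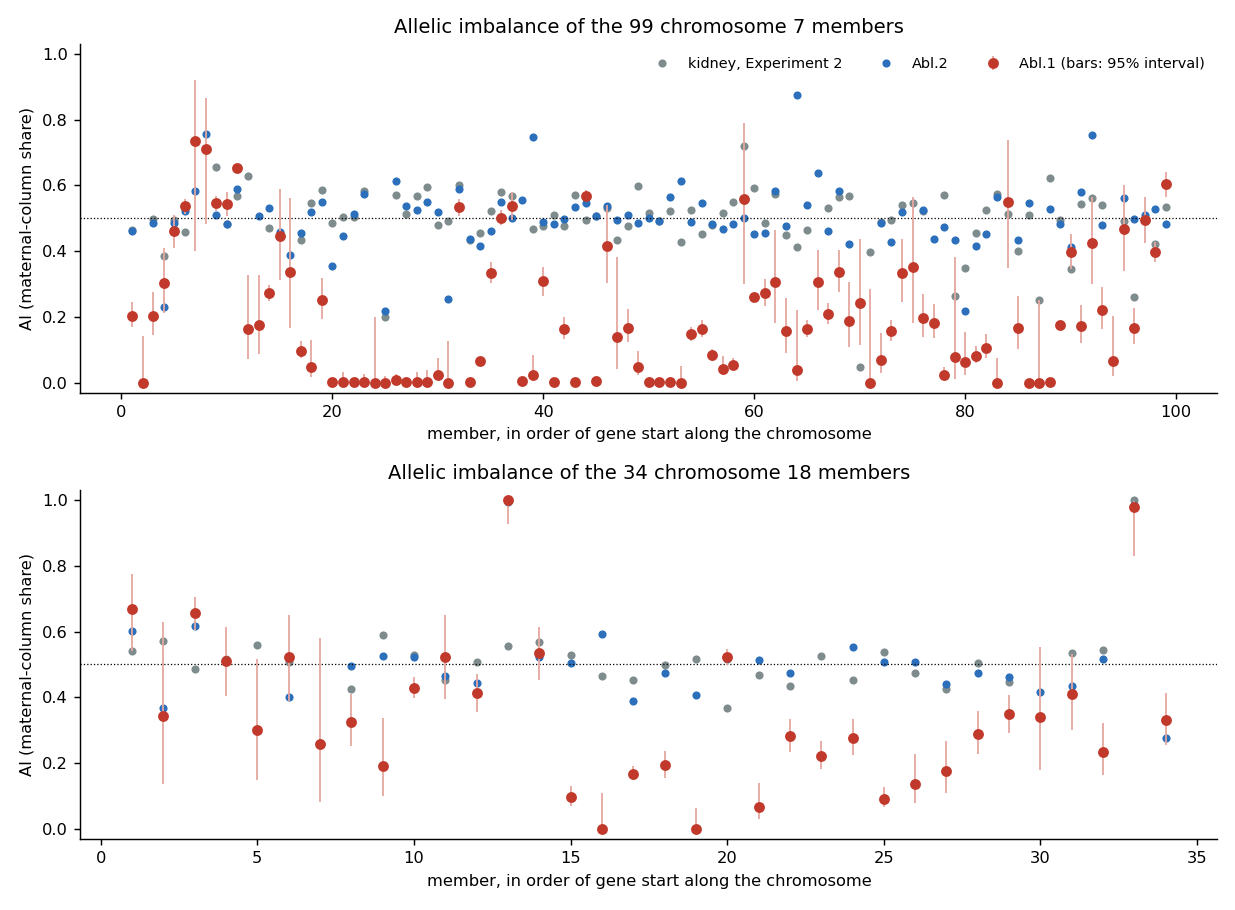
AI (vertical axis, maternal-column share) of each member in order of gene start (horizontal axis) in Abl.1 (red, with 95% QCC-corrected Wilson intervals), Abl.2 (blue) and kidney Experiment 2 (grey), pooled over the libraries of each group, the last 2 for members with 50 or more counts. On chromosome 7, 33 red points lie under 0.05, including 12 in a row, with others at 0.4 to 0.6 between them, while 77 of 90 blue and 73 of 88 grey points are at 0.4 to 0.6.

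Of the 99 chromosome 7 members, 54 lay within the first 2.5 Mb, from Ctu1 to Nomo1, where the median AI in Abl.1 was 0.119 and 25 members were under 0.05. From 2.5 to 10 Mb (Sergef to Gm6181), 16 members had a median of 0.199, from 10 to 20 Mb (Siglech to Atp10a), 7 members had one of 0.182, and the 22 beyond (Klf13 to Klhl25) had one of 0.166. The last 3 members, Chd2, Akap13 and Klhl25, had AIs of 0.495, 0.397 and 0.604. On chromosome 18 the 14 members of the first 5 Mb (Crem to Wac) had a median of 0.470, the 14 from 5 to 10 Mb (Ccny to Osbpl1a) one of 0.171 with 13 under 0.4, and the 6 beyond one of 0.345. The low values of the chromosome 18 segment were thus found mainly in its middle.

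The borders were not sharp. Just outside the chromosome 7 segment, Zfp658 and Zfp719 on the proximal side had AIs of 0.263 and 0.0506 in Abl.1, against 0.446 and 0.547 in Abl.2, and just inside, Ctu1 and Klk4 had 0.204 and 0. On the distal side Akap13 and Klhl25 were followed, outside, by the mitochondrial ribosomal protein genes Mrpl46 at 0.545 and Mrps11 at 0.425. Within 5 Mb outside, 11 of 19 genes before the segment and 17 of 31 after it were under 0.4 in Abl.1, with medians of 0.263 and 0.390 against 0.472 and 0.520 in Abl.2. On chromosome 18 no gene with the minimum preceded Crem (0.668) and Map3k8 (0.343), and Gm6304 (0.980) and Gm10036 (0.330) at the other end were followed outside by Gm10269 (0.0017, and 0.0100 in Abl.2) and Trappc8 (0.539). The genes nearest the count minimum were, on chromosome 7, 1700028J19Rik (47 counts, AI 0.0851) and Kcnj14 (48 counts, AI 0) below it and Mybpc2 (53 counts, AI 0.736) and Siglech (62 counts, AI 0) above it, and on chromosome 18, Gm2531 (27 counts, AI 0.222) and Gm10557 (29 counts, AI 0.586) below it and Gm10125 (58 counts, AI 0.259) and Map3k8 (70 counts) above it. Of the excluded imprinted genes, Ube3a had an AI of 0.0083 in Abl.1, 0.526 in Abl.2 and 0.537 in Experiment 2, while Impact had 0.059, 0 and 0.984. Mkrn3, with only 10, 7 and 12 counts, had 0, 0 and 0.917 in the same order. Impact and Mkrn3 thus lay near opposite ends in the clones and in kidney, and which parent's copy the columns hold in each was not tested.

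The longest run of members under 0.05 in Abl.1 was 12 genes from Ptov1 to Prrg2, within 199.6 kb. They are Ptov1, the Mediator subunit Med25, the ciliogenesis gene Fuz, the clathrin adaptor subunit Ap2a1, Cpt1c, the antisense gene Gm15545, Bcl2l12, the antiviral transcription factor Irf3, Scaf1, the small GTPase Rras, Prr12 and Prrg2. Together they had 46 maternal-column counts among 15962 in Abl.1, or 0.288%, and 12157 among 23589 in Abl.2, or 51.5%. Irf3 held 12292 of these Abl.2 counts, and the single AIs there ran from 0.218 (Gm15545) to 0.612 (Bcl2l12). None of the 12 exceeded 0.0230 in Abl.1. A further run held Rpl18, Cyth2, Grwd1, Kdelr1 and Tmem143, with 56 maternal-column counts among 10620 in Abl.1 (0.527%) and 5241 among 10205 in Abl.2 (51.4%). The third held Tm2d3, Pcsk6 and Snrpa1, with 21 among 14509 in Abl.1 (0.145%) and 5711 among 10696 in Abl.2 (53.4%). Of the chromosome 7 members, 9 had no maternal-column count at all in Abl.1. Of all members, 73 on chromosome 7 and 24 on chromosome 18 overlap another annotated gene. Per the methods of the study, stretches claimed by more than 1 gene were left out of the gene models, so their counts come from the remaining exons.

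The segments were chosen on the AI of Abl.1, so the counts of members between the clones describe that choice and nothing is read from them. AI was past the threshold on the lower side in Abl.1 for 61 of 91 tested chromosome 7 members and on the higher side for 2 (Napsa and Klhl25), by a proportional test on counts divided by the square of the QCC with Bonferroni correction over all genes. Of the 31 tested chromosome 18 members, 12 were called lower and 0 higher, 18 had an unadjusted p under 0.05 in either direction, and edgeR and limma each called 16 in either direction. Across all 10068 genes tested, 10.9% were called lower and 7.98% higher in Abl.1. The 8 and 3 untested members had under 10 counts in some library, and 5 and 2 members had no count in Abl.2. Without Abl.1 replicate 1 the chromosome 18 count was 7 and without Abl.1 replicate 2 it was 6.

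For the genes of ribosomes and RNA handling, 12 of the 14 listed genes of the chromosome 7 segment were members, with a median AI of 0.0128 in Abl.1, 0.487 in Abl.2 and 0.507 in Experiment 2. AI was past the threshold on the lower side in Abl.1 for 11 of the 12, against the 10.9% of all genes. The lists were drawn up with earlier results known, and their counts, here and below, describe the chosen segments too. The same 10.9% of all genes applies to every list. Of all tested members, 61 of 91 on chromosome 7 and 12 of 31 on chromosome 18 were past this threshold. Whether any list differed from the rest of its segment was not tested. Rpl13a, of the large ribosomal subunit, had AIs of 0.0679 and 0.0624 in Abl.1, 0.416 and 0.413 in Abl.2 and a range from 0.442 to 0.468 (median 0.456) in the 6 libraries of Experiment 2. Ruvbl2, an ATPase of chromatin remodelling and assembly complexes, had AIs of 7.45e-04 and 0.00143 in Abl.1, 0.471 and 0.496 in Abl.2, and 0.452 to 0.553 (median 0.532) in Experiment 2. The spliceosome gene Snrpa1 (pooled AI 0.0026) and the ribosome assembly gene Grwd1 (8.10e-04) were as low in Abl.1, whereas Snrnp70, also of the spliceosome, was at 0.308 and Nosip at 0.534. Nosip was the member of the group that stayed near even in Abl.1, with 0.557 and 0.508 in the libraries against 0.593 and 0.586 in Abl.2.

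Among the 6 metabolism members of chromosome 7, the median AI was 0.165 in Abl.1, 0.503 in Abl.2 and 0.515 in Experiment 2. All 6 were called lower in Abl.1, as were 61 of the 91 tested members of the segment. Ftl1 had 1.61 and 1.93 maternal-column CPM in the Abl.1 libraries and 774.8 and 738.6 in those of Abl.2. Its paternal-column counts were 1619 and 1416 CPM in Abl.1 and 674.4 and 652.7 in Abl.2. The pooled AI of Ftl1 was 0.00118 in Abl.1 (95% interval 6.69e-04 to 0.00208), 0.533 in Abl.2 and 0.570 in Experiment 2. Ldha, the muscle-type subunit of lactate dehydrogenase, was the member with most counts (118659 in Abl.1). Its AI was 0.253 and 0.269 in the Abl.1 libraries, 0.453 and 0.451 in those of Abl.2 and 0.577 to 0.606 (median 0.593) in Experiment 2, so that the 3 groups did not overlap. Glycogen synthase Gys1 had 0.175 and 0.153 in Abl.1 and 0.489 and 0.509 in Abl.2, and the Golgi calcium-binding gene Nucb1 had 0.00536 and 0.00571 in Abl.1 and 0.487 and 0.528 in Abl.2. Selenos, an endoplasmic reticulum selenoprotein outside the lists, had 0.179 and 0.172 in Abl.1 and 0.465 and 0.499 in Abl.2.

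The 7 members listed as immune genes had a median AI of 0.0223 in Abl.1, 0.536 in Abl.2 and 0.544 in Experiment 2, and 6 of the 7 were called lower in Abl.1. Cd37, a tetraspanin of B cells, had 0.468 and 0.450 maternal-column CPM in Abl.1 against 508.6 and 482.9 in Abl.2, and 94.9 and 93.7 paternal-column CPM against 410.9 and 385.4. Both columns of Cd37 were thus at lower levels in Abl.1, the maternal column by far the more. Irf3 had at most 0.180 maternal-column CPM in Abl.1 and 153.8 and 148.8 in Abl.2, with 69.8 and 87.6 paternal-column CPM in Abl.1 and 128.5 and 133.7 in Abl.2. The transcription factor Klf13 had AIs of 0.0186 and 0.0267 in Abl.1 and 0.491 and 0.451 in Abl.2. Akap13 was at 0.380 and 0.411 in Abl.1 and 0.541 and 0.517 in Abl.2, and the amino acid oxidase Il4i1, the member not called, was at 0.377 and 0.303 in Abl.1 and at 0.352 and 0.428 in Abl.2.

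Genes of cell death, DNA repair and chromatin lay on both sides of even in Abl.1. The 11 members had a median AI of 0.251 in Abl.1, with a range from 0 to 0.569, against 0.538 in Abl.2 and 0.542 in Experiment 2, and 6 of the 11 were called lower in Abl.1. Bax had AIs of 0.564 and 0.575 in Abl.1, 0.549 and 0.546 in Abl.2 and 0.470 to 0.538 (median 0.488) in Experiment 2. The chromatin remodeller Chd2 was at 0.590 and 0.399 in Abl.1, on both sides of even, and Nsmce3, of the SMC5/6 complex, had no maternal-column count among 304 in Abl.1 and an AI of 0.565 in Abl.2. Membrane traffic and cytoskeleton genes gave 10 of 12 tested members lower in Abl.1, with a median AI of 0.127 over 14 members, against 0.510 in Abl.2 and 0.516 in Experiment 2. Their Abl.1 values ran from 0.00107 (Ap2a1) to 0.551 (Tjp1). Growth signalling and transcription genes gave 2 of 6 tested members lower, with a median of 0.221 over 7 members, against 0.498 in Abl.2 and 0.486 in Experiment 2.

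Several members ran against the segment. Napsa, an aspartic protease, was the highest of those with more than 1000 counts, at 0.644 and 0.658 in Abl.1, 0.578 and 0.599 in Abl.2 and 0.563 to 0.573 (median 0.569) in Experiment 2. Spib, an Ets-family transcription factor of B cells, had 0.844 and 0.630 in Abl.1, where it had only 118 counts (95% interval 0.484 to 0.867), and 0.759 and 0.752 in Abl.2. The DNA polymerase subunit Pold1 had 0.506 and 0.557 in Abl.1 and 0.507 and 0.510 in Abl.2, and Klhl25, at the distal end, had 0.666 and 0.564 in Abl.1 and 0.456 and 0.511 in Abl.2. Pih1d1 was at 0.492 and 0.514 in Abl.1 and at 0.554 and 0.547 in Abl.2. At the other extreme, Tm2d3 had no maternal-column count among 6353 in Abl.1 (95% interval 0 to 0.00385) and 1960 among 3598 in Abl.2. Gm15545 had none among 1103, Tmem143 none among 473 and Nsmce3 none among 304.

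**Figure D3:**
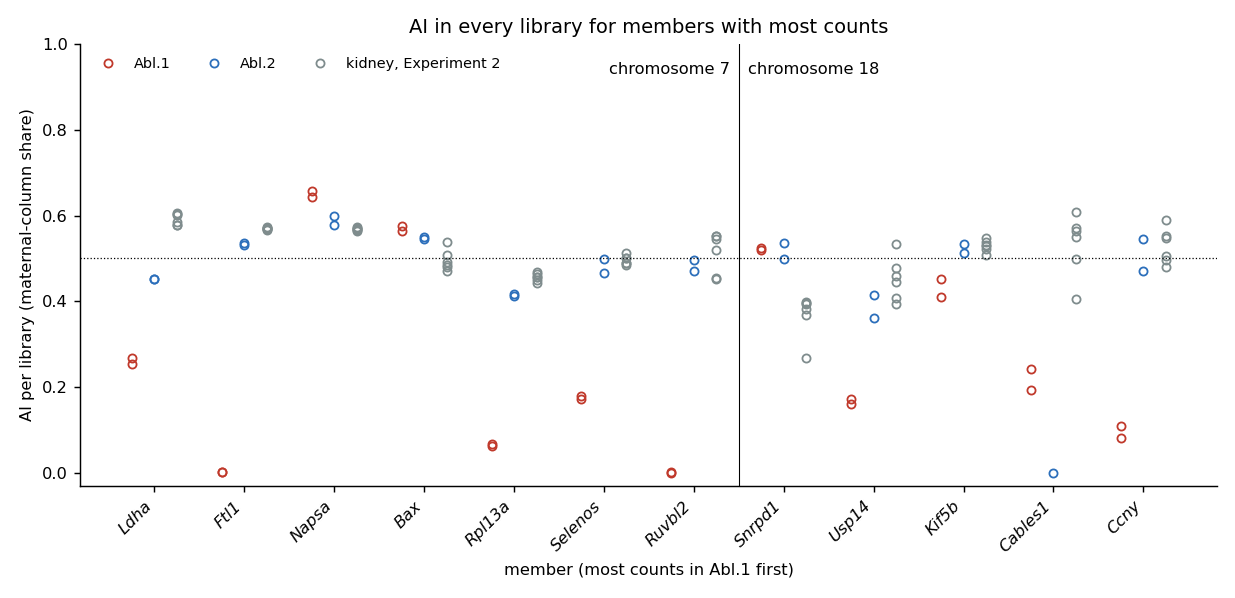
AI in every library (vertical axis, maternal-column share, 1 circle per library) for 7 chromosome 7 and 5 chromosome 18 members among those with most counts in Abl.1 (horizontal axis), in Abl.1, Abl.2 and kidney Experiment 2. Ftl1 and Ruvbl2 are close to 0 in both Abl.1 libraries and between 0.452 and 0.574 in all others, while Napsa, Bax and Snrpd1 are above 0.5 in both Abl.1 libraries; Cables1 had 10 or more counts in only 1 Abl.2 library.

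On chromosome 18, signalling and cytoskeleton genes had a median AI of 0.208 in Abl.1 over 8 members, against 0.509 in Abl.2 and 0.529 in Experiment 2. Of these, 3 of 6 tested members were called lower in Abl.1. The counts of the chromosome 18 lists describe the chosen segment, where 12 of 31 tested members were called lower, against 10.9% of all genes. The cyclin Ccny had AIs of 0.0810 and 0.110 in Abl.1, 0.546 and 0.471 in Abl.2 and 0.481 to 0.589 (median 0.527) in Experiment 2. In Ccny the Abl.1 libraries lay below all others. Mib1, a ubiquitin ligase of Notch signalling, had 0.0821 and 0.0515 in Abl.1 and 0.506 and 0.519 in Abl.2. The kinesin Kif5b was nearer even in Abl.1, at 0.452 and 0.410, against 0.512 and 0.533 in Abl.2, and was not called. Cables1 had 2405 counts in Abl.1 with an AI of 0.222, 22 counts in Abl.2, all in the paternal column, and an AI of 0.525 in Experiment 2.

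The 5 RNA and protein handling members of chromosome 18 had a median AI of 0.168 in Abl.1, 0.516 in Abl.2 and 0.465 in Experiment 2, and 3 were called lower in Abl.1. The deubiquitinase Usp14 had 0.160 and 0.173 in Abl.1, 0.362 and 0.414 in Abl.2 and 0.393 to 0.534 (median 0.452) in Experiment 2. The kinase Riok3, of small-subunit maturation, had 0.0909 and 0.0915 in Abl.1 and 0.472 and 0.543 in Abl.2. Thoc1, of the mRNA export complex THO, had no maternal-column count among 203 in Abl.1 and an AI of 0.593 in Abl.2. Snrpd1, of the spliceosome core, was even in Abl.1 at 0.525 and 0.520, and the mitochondrial poly(A) polymerase Mtpap was at 0.620 and 0.681 in Abl.1 and 0.612 and 0.620 in Abl.2. Of the 9 transcription and chromatin members (median 0.348 in Abl.1, 0.464 in Abl.2, 0.507 in Experiment 2), 3 were called lower, among them the cohesin acetyltransferase Esco1 with no maternal-column count among 362 in Abl.1 and an AI of 0.408 in Abl.2. The 3 lipid and membrane members (Npc1, Osbpl1a and Tmem241) had a median of 0.277 in Abl.1, 0.475 in Abl.2 and 0.452 in Experiment 2, with 2 called lower. Mpp7, a scaffold of cell junctions, had all of its 309 counts in the maternal column in Abl.1 and 610 of 614 in Abl.2, against an AI of 0.518 to 0.630 (median 0.545) in Experiment 2. The processed pseudogene Gm6304 was at 0.980 in Abl.1, 0.984 in Abl.2 and 1 in Experiment 2, and its reads may be shared with near-identical copies.

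The members' level was compared per allele, as log2 ratios of Abl.1 to Abl.2 scaled by TMM factors of the total allelic counts. Scaling by the library totals instead, an alternative chosen after seeing the data, lowered every ratio, so that the median of all 12492 genes tested was -0.35 for total counts, and the ratios below are to be read relative to the median gene. For the chromosome 7 members, the median log2 ratio was -1.99 for maternal-column counts (96 members), 0.79 for paternal-column counts and 0.02 for total counts (98 members each, Siglech having too few counts). Over all genes with a ratio, the median was -0.03 for the maternal and 0.06 for the paternal column. By library totals, the chromosome 7 medians were -2.34, 0.45 and -0.33, against -0.37, -0.29 and -0.35 over all genes. The median of total counts lay close to that of all genes under both scalings, but those genes needed no minimum in Abl.1. Under the same minimum, the TMM-scaled total medians were 0.18 over the rest of chromosome 7 and 0.12 over the autosomes without such segments. The paternal medians of these sets were 0.25 and 0.11. For the members, the median of total counts was -0.04 to 0.14 when any 1 library was left out. Ratios with 3 or fewer pooled counts in a clone are bounds set at 3 counts over its 2 libraries, which held for 14 of the tested chromosome 7 members in the maternal column of Abl.1.

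The paternal-column ratio was larger where the AI in Abl.1 was lower. For the 32 tested chromosome 7 members with an AI under 0.05 in Abl.1, the median log2 ratio was -6.95 in the maternal and 1.52 in the paternal column. For the 27 from 0.05 to under 0.2 it was -1.92 and 0.74, for the 20 from 0.2 to under 0.4 it was -0.81 and 0.38, and for the 15 from 0.4 to 0.6 it was -0.11 and -0.09. By library totals, the paternal medians of these groups were 1.18, 0.40, 0.04 and -0.44. The AI and the ratios share the Abl.1 counts, so their order is in part fixed by the grouping. Medians of total counts were 0.58, -0.05, -0.06 and -0.27 in the same order.

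Single genes differed in how their allele ratios combined. For Ftl1 the edgeR log2 ratio was -8.38 (SE 0.27) in the maternal column, 1.55 (SE 0.20) in the paternal column and 0.46 (SE 0.20) for total counts. Ldha had -0.06 (SE 0.18), 1.17 (SE 0.18) and 0.74 (SE 0.19). Bax had TMM-scaled ratios of 1.01, 0.88 and 0.95 in the same order, so that both alleles were higher in Abl.1. Cd37 had -9.72 (SE 0.30), -1.72 (SE 0.20) and -2.88 (SE 0.19), and Irf3 had -10.21 (SE 0.51), -0.39 (SE 0.19) and -1.50 (SE 0.17).

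The next counts compare the clones by which the segment was chosen, and they too describe the choice. In the chromosome 7 segment, 64 of 98 members had fewer and 8 had more maternal-column counts in Abl.1 by edgeR's quasi-likelihood test with Benjamini-Hochberg adjustment, against 19.3% and 20.9% of all genes tested. For paternal-column counts, 9 were lower and 47 higher, against 17.9% and 25.0% of all genes. For total counts, 21 were lower and 29 higher, against 21.8% and 24.6%. By library totals the split of total counts was 27 lower and 15 higher. Of the 98 members, 30 were lower in the maternal and higher in the paternal column, and 18 of these were not called for total counts. The calls rest on few libraries: for total counts, 30 members were called without Abl.2 replicate 1 and 24 without Abl.2 replicate 2, against 50 with all, and for paternal-column counts 37 without Abl.2 replicate 2, against 56. Fewer cells expressing a gene cannot be told apart from less RNA per cell.

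**Figure D4:**
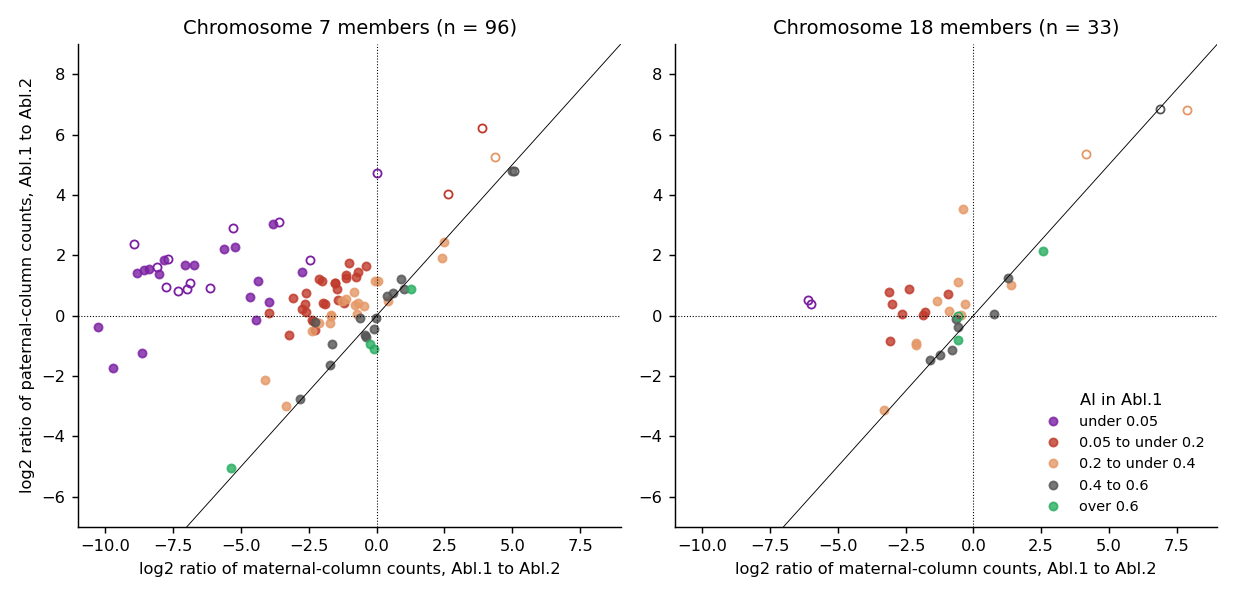
Log2 ratio of Abl.1 to Abl.2 counts in the maternal (horizontal axis) and paternal column (vertical axis), TMM scaled, 1 point per member, coloured by AI in Abl.1, with the diagonal of equal change. Open circles have 3 or fewer counts in some column of a clone, so their ratios are bounds. Members under 0.05 (purple) lie far to the left, with a median paternal ratio of 1.52 on chromosome 7, and those from 0.4 to 0.6 (grey) lie along the diagonal.

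For the 34 chromosome 18 members the median log2 ratio was -0.85 in the maternal column, 0.14 in the paternal column (33 members) and -0.32 for total counts. By library totals it was -1.19, -0.21 and -0.67. The paternal medians lay above those of all genes (0.06 and -0.29), which needed no minimum in Abl.1. Under the same minimum, the TMM-scaled paternal medians were 0.02 over the rest of chromosome 18 and 0.11 over the autosomes without such segments. The members' paternal median rested on the set of libraries, at 0.37 and 0.36 without Abl.1 replicate 1 and 2, and 0.41 and 0.27 without Abl.2 replicate 1 and 2. Maternal-column counts were called lower for 17 and higher for 7 members, paternal-column counts lower for 6 and higher for 10, and total counts lower for 9 and higher for 6, against the shares of all genes given above. By library totals the splits were 21 and 5, 8 and 5, and 14 and 5. Without Abl.2 replicate 1 or replicate 2, 7 or 8 members were called for paternal-column counts, against 16 with all libraries, and without Abl.1 replicate 1, 23 were called for total counts, against 15. For Ccny the log2 ratio was -2.38 (SE 0.24) in the maternal and 0.91 (SE 0.25) in the paternal column, with 0.04 (SE 0.19) for total counts. For Riok3 it was -2.98 (SE 0.25), 0.39 (SE 0.20) and -0.50 (SE 0.18), and for Snrpd1 1.33 (SE 0.32), 1.29 (SE 0.32) and 1.31 (SE 0.32). Maternal-column counts of Ccny and Riok3 were lower in Abl.1, and both columns of Snrpd1 were higher.

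Among the members with the largest differences of total counts were transcripts without a count in Abl.2. Membership needed 50 counts in Abl.1 alone, so genes with counts only in Abl.2 could not be members, and the list is one-sided in that respect. Myh14, Klk4 and Tjp1 on chromosome 7 had 201, 147 and 138 counts in Abl.1 and 0 in Abl.2, log2 ratios of at least 6.48, 6.03 and 5.94. Klk4, a kallikrein protease, had counts in the paternal column only, while the tight junction gene Tjp1 had an AI of 0.551 in Abl.1 and Myh14, a non-muscle myosin, one of 0.164. In the other direction, Spib had 118 counts in Abl.1 and 6146 in Abl.2 (log2 ratio -5.30, SE 0.22), Tmem86a 128 and 3103 (-4.13, SE 0.42) and Il4i1 119 and 1374 (-3.11, SE 0.24). On chromosome 18, Jcad had 527 and Svil 133 counts in Abl.1 against 0 in Abl.2, log2 ratios of at least 7.87 and 5.88, and Cables1 had 2405 against 22 (log2 ratio 7.16, SE 0.29). Map3k8 (-3.18, SE 0.29), Arhgap12 (-1.64, SE 0.26) and Taf4b (-1.55, SE 0.23) had the lowest called ratios there.

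Measured against kidney Experiment 2, in CPM and without a test because tissue and depth differ, the 82 chromosome 7 members with 50 or more counts in all 3 groups had a median log2 ratio of -1.48 for the maternal and 1.55 for the paternal column in Abl.1. In Abl.2 the medians were 1.12 and 1.26. Over 8280 genes they were 0.66 and 0.69 for Abl.1 and 1.08 and 0.93 for Abl.2. For 28 chromosome 18 members they were -0.81 and 0.42 in Abl.1 and 1.29 and 1.26 in Abl.2. Abl.1 was below the genes at large for the maternal column of both segments.

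Kidney had no part in the choice of the segments, while Abl.2 is the clone that Abl.1 was set against. The AI of the members in both was tested against 0.5. In Abl.2, 15 of 91 chromosome 7 members (16.5%) and 4 of 31 chromosome 18 members (12.9%) differed from 0.5, against 29.9% of the 11228 genes tested. In Experiment 2, 19 of 82 (23.2%) and 1 of 31 (3.23%) did, against 24.3% of 10739 genes. Over the other genes of chromosomes 7 and 18 with the members' count minimum, the shares were 24.8% and 23% in Abl.2 and 22.2% and 22.7% in Experiment 2. On chromosome 18 the kidney count of 1, the pseudogene Gm6304, compares with 12 members at an unadjusted p under 0.05.

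The most uneven in Abl.2 were Tmem86a, an enzyme of lysoplasmalogen breakdown, at 0.853 and 0.899 (Bonferroni adjusted p = 1.03e-79), Spib at 0.759 and 0.752 (8.77e-73), Asb7 at 0.789 and 0.719 (1.78e-11) and Ptov1 at 0.375 and 0.335 (3.13e-05). In Abl.1 these genes had AIs of 0.0391, 0.712, 0.426 and 0.00164, so Spib and Ptov1 were on the same side of even in both clones and Tmem86a and Asb7 were not. On chromosome 18 they were Mpp7 (1.26e-25), Gm10036 at 0.282 and 0.269 (0.0201), Mtpap (1.72e-09) and Usp14 (2.00e-16). Mpp7, Mtpap, Gm10036 and Usp14 were on the same side in Abl.1, where the last 3 had 0.656, 0.330 and 0.168.

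In kidney Experiment 2 the most uneven on chromosome 7 were the pseudogene Gm6181 at 0 to 0.0938 (median 0.0511, adjusted p = 1.09e-15), Gm15545 at 0.0455 to 0.478 (median 0.135, 0.0337), the proprotein convertase Pcsk6 at 0.127 to 0.351 (median 0.256, 2.51e-06) and Lrrc28 at 0.214 to 0.3 (median 0.256, 1.70e-33). All of these genes leaned to the paternal column in Abl.1 too. Gm15545 and Lrrc28 had AIs of 0 and 0.165 there. Pcsk6 had only paternal-column counts (39 and 34 by library), and Gm6181 had 32 and 6 maternal-column against 99 and 20 paternal-column counts. Lrrc28 was at 0.558 and 0.441 in Abl.2, where Pcsk6 had only 1 and 2 counts, all in the paternal column. The count on chromosome 7 was 12 without replicate 4 of Experiment 2, 12 in Experiment 1 and 6 in Experiment 3, against 19.

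Of the chromosome 7 members, 8 differed from even in both Abl.2 and Experiment 2, which is 53.3% of those called in Abl.2 and 42.1% of those called in Experiment 2. Over all genes, 887 were called in both, or 26.4% of those called in Abl.2 and 33.9% of those called in Experiment 2, and the difference was not tested. Among them, Napsa, Nosip, Pih1d1 and Ftl1 were on the maternal-column side and Rpl13a on the paternal-column side in both samples. Ldha and Tmem86a were on opposite sides. Of these 8, Napsa, Nosip and Pih1d1 were also above 0.5 in Abl.1 (0.652, 0.534 and 0.502), and Ftl1 and Tmem86a were below 0.5 in Abl.1 but above it in Abl.2.

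Abl.2 and kidney Experiment 2 differed in AI for 6 of 78 chromosome 7 members (7.69%) and 2 of 28 chromosome 18 members (7.14%), against 24.0% of 8294 genes. Over the other genes of chromosomes 7 and 18 with the members' count minimum, 20.1% and 13.9% differed. Ldha was lower in Abl.2 than in all 6 kidney libraries (adjusted p = 4.97e-167), as was Ftl1, at 0.535 and 0.531 against 0.566 to 0.574 (1.36e-11). Emc10, of the endoplasmic reticulum membrane complex, was higher in Abl.2, at 0.509 and 0.536 against 0.438 to 0.474 (7.64e-04), as was Akap13, at 0.541 and 0.517 against 0.384 to 0.454 (4.05e-04). Tmem86a, at 0.853 and 0.899 against 0.384 to 0.433 (2.65e-95), and Lrrc28, at 0.558 and 0.441 against 0.214 to 0.3 (3.73e-09), were the remaining members. On chromosome 18, Mtpap was higher in Abl.2, at 0.612 and 0.620 against 0.440 to 0.545 (0.00409), and so was Mpp7, at 0.994 and 0.993 against 0.518 to 0.630 (1.99e-15). In each of these 8 genes the Abl.2 and kidney libraries did not overlap. The test that picked them used the same libraries, so this only describes the calls. With Experiment 3 in place of Experiment 2 the counts were 3 and 1.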

How the data were processed

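The submitters' processing notes name STAR 2.5.4a, SAMtools and GATK. The authors deposited whole-number allelic counts per gene for the 24 libraries, and these counts were used as deposited. The gene positions, in GRCm38, gave the same starts as GENCODE for all 133 members. AI was computed as maternal-column counts over all allelic counts, pooled over the libraries of a group. The QCC was computed from replicate pairs after the methods of the study, with libraries thinned to equal totals where these differed by over 5%. AI was tested by proportional tests on counts divided by the squared QCC, for genes with 10 or more counts in every library, with Bonferroni correction at 0.05. Counts of the clones were compared with edgeR 4.0.16 (quasi-likelihood test, TMM, filterByExpr, Benjamini-Hochberg adjustment at 0.05), where SE is the fold change over the square root of F. Alternatives used DESeq2 1.42.0 and limma 3.58.1 in R 4.3.3, and other steps used Python 3.11.15. Procedures were tested on simulated data. Intervals are 95% Wilson intervals on corrected counts and cover counting and library error only. The precision is set by the depth given in the report.

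Members and gene lists were chosen with earlier results of these data known. The rule for named genes took, per segment, the members with most counts in Abl.1 (8 and 6), those farthest above even or nearest 0 or 1 there (up to 5 and 3, with 100 or more counts in both clones), the 4 farthest from even among those called in Abl.2 or Experiment 2, list members with 100 or more counts, the genes at the borders and the 3 largest called differences of total counts in each direction. The genes of the runs under 0.05, those called between Abl.2 and Experiment 2, those called in both of these samples and those at the count minimum were named after their values were seen. Some genes that the rule takes are not reported here.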

Additional observations from a re-analysis of the deposited data

Results flagged for a closer look

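Among 18 groups of 6 kidney libraries examined for a library far from the others, 2 held one by Dixon's criterion, which chance alone meets in about 1 in 20 groups. In CPM, the maternal-column sum of the chromosome 7 members was 9688 in replicate 2 of Experiment 3, against 9618 to 9640 in the other libraries of that experiment. The median AI of the chromosome 18 members was 0.524 in replicate 3 of Experiment 1, against 0.474 to 0.489 in the others. Neither experiment entered the main comparisons.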

How the results depend on the processing

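Of 208 alternative values for 26 results, 153 kept their direction and size, 52 moved and 3 reversed, and where none is named below the cause was not tested. The median total log2 ratio of the chromosome 7 members reversed from 0.02 to -0.33 with library totals and to -0.04 without Abl.1 replicate 2, and the paternal median of chromosome 18 from 0.14 to -0.21 with library totals, which shift all genes alike. Library totals also moved the maternal and paternal medians of chromosome 7 to -2.34 and 0.45 and the total and maternal medians of chromosome 18 to -0.67 and -1.19. With 200 or more counts in Abl.1, the maternal median of chromosome 7 was -2.05 and the AI medians of chromosome 18 were 0.289 in Abl.1 and 0.505 in Abl.2. Over members shared by the 3 groups, chromosome 18 gave 0.506 for AI in Abl.2, -0.48 for total and -1.28 for maternal ratios, and in Experiment 3 the kidney median was 0.482.

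Without QCC correction, which leaves the library error out, 43 and 8 members (chromosomes 7 and 18) differed from even in Abl.2, 5 of chromosome 18 did in Experiment 2, and 21 and 6 differed between Abl.2 and Experiment 2. With Benjamini-Hochberg adjustment the counts were 42 and 8 in Abl.2, 30 and 8 in Experiment 2 and 23 and 7 between them. At 20 or more counts, 0 chromosome 18 members were called in Experiment 2 by the proportional test, against 12 with an unadjusted p under 0.05 at 10 or more counts. Experiment 1 gave 12 and Experiment 3 gave 6 chromosome 7 members away from even, and Experiment 3 gave 3 and 1 against Abl.2.

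Leaving out 1 library at a time, an alternative added after seeing the data for Experiment 2, gave 6 to 11 chromosome 18 members for AI between the clones, 12 to 18 chromosome 7 members in Experiment 2, 24 to 71 and 11 to 23 for total counts, and 37 to 69 and 7 to 20 for paternal-column counts. The AI medians ranged from 0.155 to 0.162 (Abl.1) and 0.502 to 0.504 (Abl.2) on chromosome 7, and 0.303 to 0.323 and 0.49 to 0.495 on chromosome 18. The total, maternal and paternal medians ranged from -0.04 to 0.14, -2.12 to -1.98 and 0.70 to 0.77 on chromosome 7, and from -0.33 to -0.24, -1.06 to -0.78 and 0.27 to 0.41 on chromosome 18. Where 1 library was left for a clone, it was assumed to vary like the other clone.

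The clones share only a replicate number: same-numbered libraries deviated with a correlation of 0.142 for total counts and 0.00801 for AI over 10068 genes. With a replicate block, 45 and 15 members were called for total counts, 77 and 25 for maternal-column, 60 and 17 for paternal-column counts and 66 and 17 for AI by edgeR. Members near the count minimum have wide AI intervals, and each clone rests on 2 libraries.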
